A study of Mus musculus with 9 samples.

Results

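Axon guidance ligands and receptors are the secreted and membrane proteins that steer growing nerve fibres, and H3K27me3 over their genes was examined in mouse bone marrow progenitors. The set was taken by gene symbol from 8 families and comprised 66 of 21887 protein-coding genes: 9 EphA and 5 EphB receptors, 5 ephrin-A and 3 ephrin-B ligands, 7 class 3 and 13 class 4 to 7 semaphorins, 9 plexins, 4 netrins, 4 Unc5 receptors, 3 Slits and 4 Robos. No measured value entered the choice. H3K27me3 is trimethylation of lysine 27 on histone H3, written by Polycomb repressive complex 2 at silent genes. It had been mapped by chromatin immunoprecipitation and sequencing in Lin-/c-Kit+ cells, a magnetic-bead fraction that holds hematopoietic stem and progenitor cells and was never cultured. The cells came from transplanted female C57BL/6 mice kept for 1 month on metformin or without it.

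The 4 groups had 2 libraries each. RH MET and RH VEH carried Dnmt3a fl-R878H/+ with Mx1-cre and received metformin or vehicle, and WT MET and WT VEH carried Dnmt3a+/+ with the same Mx1-cre and received metformin or vehicle. Dnmt3a encodes a de novo DNA methyltransferase, and metformin is a biguanide. Mx1-cre is an interferon-inducible recombinase, so its activity is not confined to blood cells. The labels give neither its induction nor how much of each marrow came from donor or from host cells. They call the libraries replicates without naming the animals, so p-values rest on a spread among libraries that could be technical only. The labels' input library was not analysed here.

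Eph receptors are receptor tyrosine kinases that bind ephrins on neighbouring cells. Semaphorins signal through plexins, netrins through Unc5 receptors and Dcc, and Slits through Robos. Many of these genes drive wiring of the nervous system and growth of vessels, a few act on blood cells, and developmental genes of other tissues are common Polycomb targets in blood progenitors.

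The deposited data are intervals of H3K27me3 per library, each with a summit and a summit height. Height is a score without a stated unit. A library was taken to call a gene when at least 1 bp of the span lay in an interval, and the percent of the span covered was computed from the overlap. RH MET 1 and 2 held 16879 and 15257 intervals, RH VEH 1 and 2 held 11620 and 13339, WT MET 1 and 2 held 16572 and 16694, and WT VEH 1 and 2 held 12009 and 16259. Read depth is unknown. Covered length averaged 122 ± 31.3 Mb in the 4 RH libraries and 155 ± 20.7 Mb in the 4 WT libraries (SD, n = 4 each; exact permutation test, two-sided, p = 0.114). The number of intervals averaged 16351 ± 740 in the 4 MET libraries and 13307 ± 2101 in the 4 VEH libraries (SD, n = 4 each; exact permutation p = 0.0571, and 0.229 adjusted over 4 such tests). The smallest p that 4 libraries against 4 allow is 0.0286. In bulk chromatin, fewer marked cells and less mark per cell cannot be told apart.

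The fraction was checked against its marker genes, since active genes typically lack this mark. Of 10 hematopoietic progenitor genes, Ptprc, Runx1 and Lmo2 had no interval in any library, whereas Tal1 and Gata2, regulators of blood stem cells, had intervals in all 8 libraries that covered 52.0% to 92.5% and 89.1% to 100% of their spans. Kit, the receptor used for the enrichment, was called in 5 libraries with at most 8.58% of its span covered. All 8 neural genes were called in every library. The endothelial genes Cdh5, Pecam1 and Tie1 and the lineage genes Ly6g and Itgam were called in none, and Kdr and Cd3e were called in all 8.

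Promoter sequences of 5 genes show the range of sequence at which the mark was or was not found. Each is the RefSeq window of GRCm38.p6 (the assembly of mm10) from 250 bases before to 50 bases after a listed transcription start, written 5′ to 3′ on the gene's strand with CpG in capitals. Efna3 and Ephb6 hold the same number of CpG, yet Efna3 was called in 8 libraries and Ephb6 in 5. Robo3 and Robo4 are neighbours that differ in CpG number, and only Robo3 was called. Sema4f was called in every library with few CpG.
Efna3, chr3:89321719-89322018, minus strand: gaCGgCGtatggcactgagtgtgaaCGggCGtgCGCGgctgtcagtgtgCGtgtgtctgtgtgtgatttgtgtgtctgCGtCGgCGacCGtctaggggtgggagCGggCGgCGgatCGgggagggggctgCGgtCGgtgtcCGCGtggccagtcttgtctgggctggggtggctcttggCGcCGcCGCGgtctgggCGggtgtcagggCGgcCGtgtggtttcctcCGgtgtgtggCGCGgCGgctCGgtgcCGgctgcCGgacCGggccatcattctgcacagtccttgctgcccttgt
Ephb6, chr6:41605261-41605560, plus strand: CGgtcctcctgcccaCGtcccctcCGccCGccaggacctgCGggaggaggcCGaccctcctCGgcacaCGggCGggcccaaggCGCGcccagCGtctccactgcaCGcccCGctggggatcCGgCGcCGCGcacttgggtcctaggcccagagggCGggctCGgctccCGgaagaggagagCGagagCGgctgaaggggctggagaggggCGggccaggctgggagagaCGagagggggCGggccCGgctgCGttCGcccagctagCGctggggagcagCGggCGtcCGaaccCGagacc
Robo3, chr9:37433126-37433425, minus strand: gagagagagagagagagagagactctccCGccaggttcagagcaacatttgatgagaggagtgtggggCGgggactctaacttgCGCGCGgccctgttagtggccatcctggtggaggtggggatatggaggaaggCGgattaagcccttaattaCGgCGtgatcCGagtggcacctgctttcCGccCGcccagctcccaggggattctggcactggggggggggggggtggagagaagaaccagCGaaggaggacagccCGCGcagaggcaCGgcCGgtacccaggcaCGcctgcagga
Robo4, chr9:37401722-37402021, plus strand: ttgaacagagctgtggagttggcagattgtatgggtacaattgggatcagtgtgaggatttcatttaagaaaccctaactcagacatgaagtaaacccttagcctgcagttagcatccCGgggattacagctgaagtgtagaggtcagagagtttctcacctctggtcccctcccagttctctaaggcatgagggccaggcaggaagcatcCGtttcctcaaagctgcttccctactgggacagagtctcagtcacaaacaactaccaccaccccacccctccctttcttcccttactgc
Sema4f, chr6:82939720-82940019, minus strand: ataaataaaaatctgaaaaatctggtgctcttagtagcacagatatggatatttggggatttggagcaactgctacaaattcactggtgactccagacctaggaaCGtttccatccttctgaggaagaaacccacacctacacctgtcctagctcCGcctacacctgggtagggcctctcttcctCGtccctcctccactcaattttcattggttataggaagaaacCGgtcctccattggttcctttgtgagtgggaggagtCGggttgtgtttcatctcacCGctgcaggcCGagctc

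Most of the family carried the mark in every library. Of the 66 genes, 56 (84.8%) were called in all 8 libraries, against 5438 of 21887 protein-coding genes (24.8%). The number of family genes called in a library lay between 56 and 60. Epha1, Sema3g, Sema4d, Ntn5 and Robo4 were called in no library, as were 13289 (60.7%) of all genes. Sema4d is better known as CD100, a semaphorin of T cells and other leukocytes, and Robo4 is a receptor of endothelium and of mouse blood stem cells. The 5 genes called in some libraries were Sema3b (1 library), Epha6 (2), Sema3e (2), Ephb6 (5) and Sema3a (6).

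The share was above that of all genes in each class of gene length. Under 20 kb, 15 of 21 family genes were called in all 8 libraries, against 18.2% of all genes of that length. Between 20 and 100 kb the count was 16 of 16, against 26.2%, and above 100 kb it was 25 of 29, against 52.7%. Within the last class, the exceptions were Sema4d in no library, Epha6 and Sema3e in 2 each and Sema3a in 6.

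**Figure D1:**
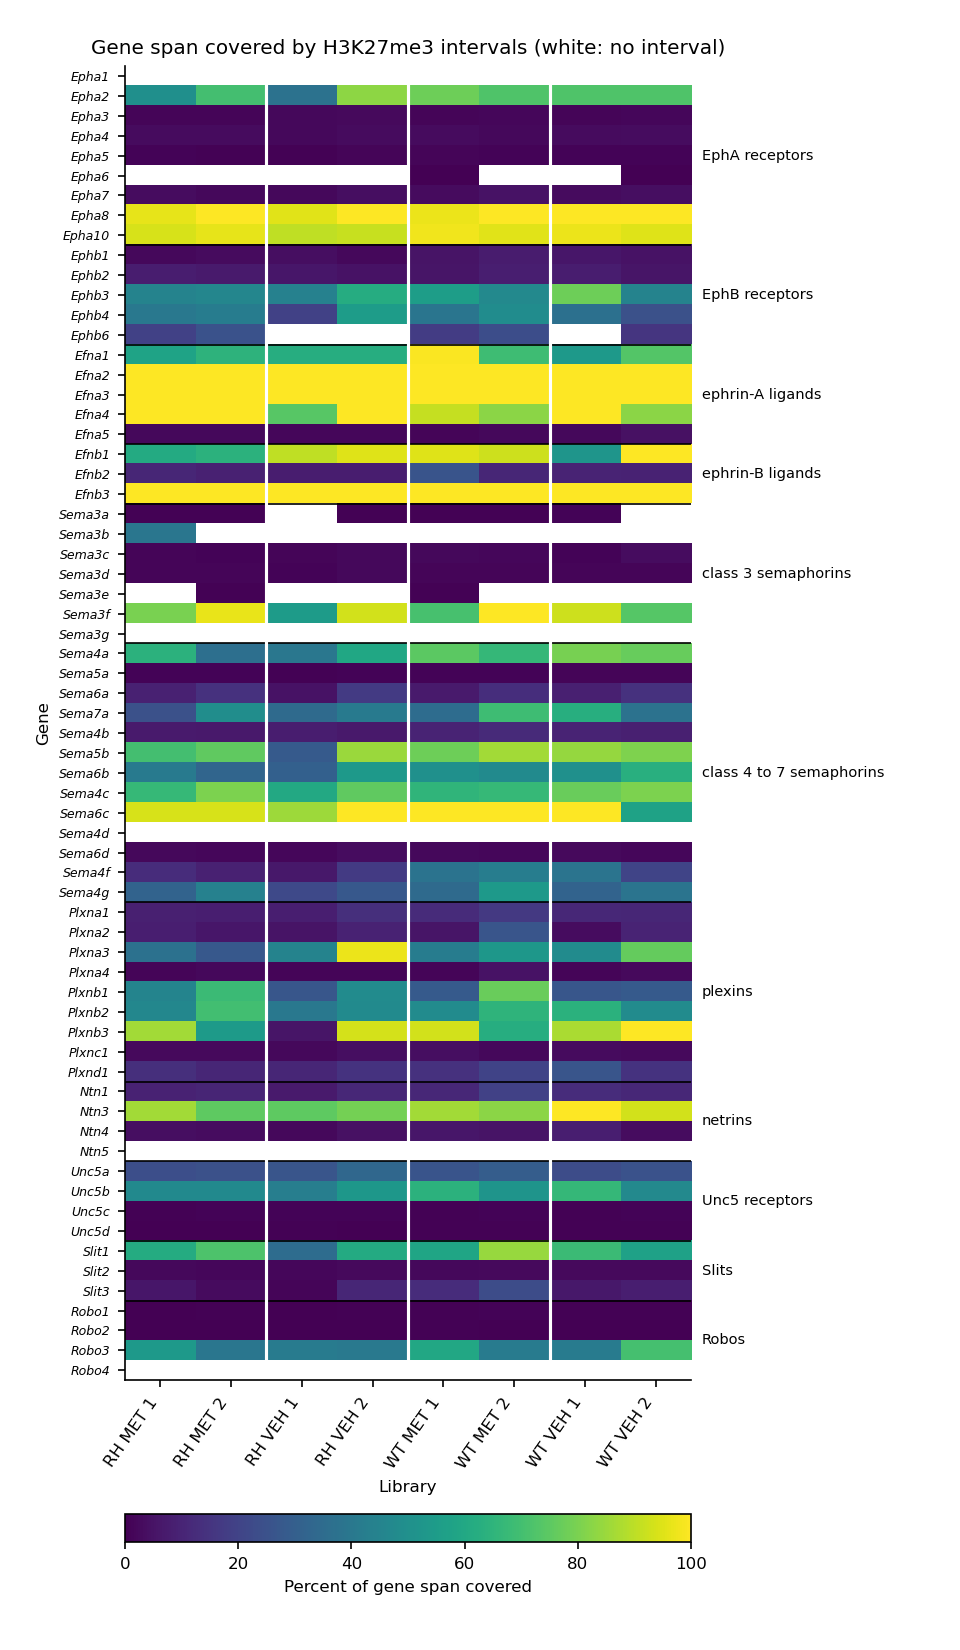
Percent of the gene span covered by H3K27me3 intervals (colour, 0 to 100) for the 66 genes (rows, by family) in the 8 libraries (columns, 2 per group); white cells have no interval. Efna2, Efna3 and Efnb3 were covered over their whole span in all 8 libraries, and 5 genes had no interval in any.

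How much of a gene was covered varied far more between genes than between libraries of a gene. Among the 56 genes in all 8 libraries, the median gene had 22.3% of its span and 8.03 kb covered, against 30.5% and 6.03 kb for all 5438 genes in all 8 libraries. The ephrin ligands were the most completely covered. Efna2 and Efna3 were covered over 100% of their spans in every library, and so was Efnb3. In contrast, Efna5, whose span is 278 kb, had 2.34% and 2.13% of it covered in RH MET, 1.84% and 1.77% in RH VEH, 1.26% and 2.13% in WT MET, and 2.05% and 4.42% in WT VEH. Efnb2, an ephrin of arteries, had 10.5% and 9.18% in RH MET, 7.82% in both RH VEH libraries, 26.0% and 10.5% in WT MET, and 10.1% and 9.64% in WT VEH. Efnb2 was therefore high in 1 library, WT MET 1.

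Efna4 lies next to Efna3 on chromosome 3, and both were covered by a single interval in 5 libraries (RH MET 1 and 2, RH VEH 1 and 2, and WT VEH 2). In those libraries Efna4 took the summit height of Efna3, between 58 and 124, whereas its own intervals had heights of 28 and 23 in WT MET and 25 in WT VEH 1. Its height therefore depended on whether the neighbouring intervals were joined. Efna1, another ephrin-A gene of that chromosome, had 53.7% to 99.2% of its span covered.

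Among the Eph receptors, Epha8 and Epha10 stood at the top. Epha8 had 96.4% and 100% of its span covered in RH MET, 95.6% and 100% in RH VEH, 97.1% and 100% in WT MET, and 100% in both WT VEH libraries. Epha10 lay between 90.6% and 97.8%. The other EphA genes with the mark in every library, apart from Epha2 (37.6% to 83.0%), are long and were covered over a small part. Epha5 was lowest, with 1.05% and 0.776% in RH MET, 0.721% and 1.27% in RH VEH, 1.33% and 0.997% in WT MET, and 1.05% in both WT VEH libraries. Groups overlapped for Epha5 and Epha8. Epha6, called in 2 libraries, had 0.206% in WT MET 1 and 0.227% in WT VEH 2. Of the EphB receptors, Ephb3 was highest, with 44.8% and 45.9% in RH MET, 43.8% and 62.0% in RH VEH, 55.5% and 47.0% in WT MET, and 78.0% and 44.8% in WT VEH. Ephb4, the receptor that marks veins and pairs with Efnb2, ranged from 19.2% to 55.3%.

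Class 3 semaphorins, the secreted ones, were the least uniform family, with 3 of 7 genes in all 8 libraries. Sema3f was covered over 80.0% and 96.5% of its span in RH MET, 54.8% and 93.1% in RH VEH, 71.0% and 100% in WT MET, and 92.4% and 73.8% in WT VEH. Sema3d was lowest of the 3, at 0.991% to 1.96%. Sema3a, which repels axons in the developing nervous system, had 0.460% in both RH MET libraries, 0% and 0.627% in RH VEH, 0.627% and 0.418% in WT MET, and 1.09% and 0% in WT VEH. The library with no interval was RH VEH 1 in one group and WT VEH 2 in the other. Sema3e, a ligand of Plxnd1, had an interval in RH MET 2 and WT MET 1 (0.486% in each), and Sema3b had one in RH MET 1 (39.1%). Neither gene had an interval in any VEH library, but how many of all genes share that pattern was not counted. Over all genes, 794 (3.63%) were called in 1 library and 433 (1.98%) in 2. Heights at Sema3e were 11 in RH MET 2 and 13 in WT MET 1, below the library medians of 15 and 15.5. Sema3b had a height of 15 in RH MET 1, equal to the library median.

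Of the membrane-bound semaphorins of classes 4 to 7, 12 of 13 were called in all 8 libraries. Sema6c was highest, with 94.1% in both RH MET libraries, 85.3% and 100% in RH VEH, 100% in both WT MET libraries, and 100% and 57.4% in WT VEH. Sema5a was lowest, at 0.440% to 1.24%. Sema5b was unusual in that it is long (123 kb) and was covered over 69.9% and 75.6% in RH MET, 28.4% and 85.1% in RH VEH, 77.9% and 86.0% in WT MET, and 84.1% and 80.7% in WT VEH. In Sema5b, RH VEH 1 was low and the other 7 libraries lay between 69.9% and 86.0%. Sema4a and Sema7a, which both act on immune cells, were called in all 8 libraries with 36.4% to 79.4% and 24.9% to 68.8% covered.

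All 9 plexins carried the mark in every library. They include Plxnc1, a receptor of Sema7a found on leukocytes (2.22% to 3.90% covered), and Plxnd1, a receptor of vessels (10.7% to 26.5%). Plxna4 was lowest, with 1.35% and 2.30% in RH MET, 1.31% in both RH VEH libraries, 1.35% and 4.87% in WT MET, and 1.35% and 2.43% in WT VEH. Plxnb3 was highest by its median and the most variable, with 86.2% and 54.6% in RH MET, 5.70% and 93.7% in RH VEH, 93.0% and 62.4% in WT MET, and 87.5% and 100% in WT VEH. For Plxnb3 the RH VEH libraries alone spanned 5.70% to 93.7%.

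Among netrins, Ntn3 was covered over 86.1% and 75.3% in RH MET, 75.3% and 78.9% in RH VEH, 86.1% and 82.5% in WT MET, and 100% and 93.3% in WT VEH. Ntn4, a netrin of basement membranes, was lowest at 2.05% to 8.34%. Of the netrin receptors, Unc5b was highest, with 47.5% in both RH MET libraries, 42.6% and 52.7% in RH VEH, 64.3% and 51.9% in WT MET, and 66.7% and 46.9% in WT VEH. Unc5b is the Unc5 receptor of endothelium. Unc5c stayed between 0.714% and 0.931%.

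Slit1 was covered over 61.6% and 71.9% in RH MET, 35.3% and 61.1% in RH VEH, 58.7% and 84.5% in WT MET, and 68.2% and 57.1% in WT VEH, although its span is 149 kb. Slit2 had 1.59% to 2.55% and Slit3 had 1.22% to 23.2%. Their receptors Robo1 and Robo2 are the longest genes of the set, with spans of 1020 and 1555 kb. Robo2 had 0.296% and 0.231% in RH MET, 0.296% and 0.309% in RH VEH, 0.424% and 0.309% in WT MET, and 0.283% and 0.347% in WT VEH. Robo3, a receptor of commissural neurons, had 54.3% and 39.3% in RH MET, 41.6% and 40.5% in RH VEH, 60.0% and 41.6% in WT MET, and 41.6% and 70.4% in WT VEH. Its neighbour Robo4 had no interval in any library.

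**Figure D2:**
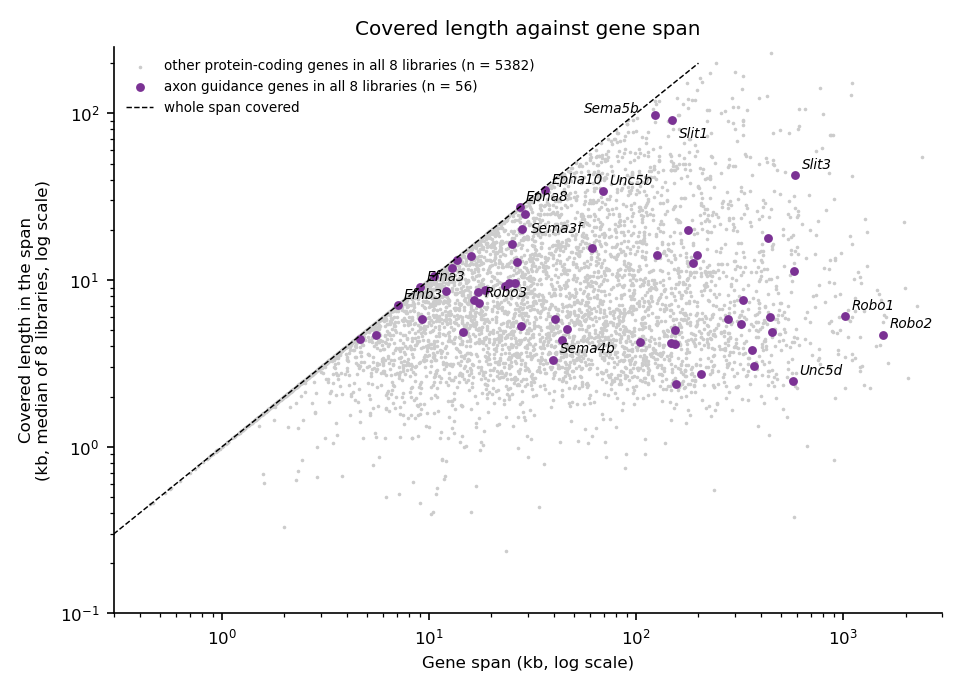
Covered length within the gene (kb, median of 8 libraries, log scale) against gene span (kb, log scale) for the 56 family genes called in all 8 libraries (purple) and the other 5382 protein-coding genes called in all 8 (grey); the dashed line marks a wholly covered gene. Efna3 lies on the line, and Robo1 and Robo2 have a few kb of coverage in spans of 1020 and 1555 kb.

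The covered length differed less than the share. Genes of the family over 100 kb had a median of 5.82 kb covered, those between 20 and 100 kb had 11.2 kb, and those under 20 kb had 8.46 kb. The same medians over all genes called in all 8 libraries were 7.30, 8.08 and 4.66 kb. The interval with the highest summit at a gene had a median width of 11.7 kb over the 56 genes, with Epha3 the narrowest at 3.5 kb and Epha8 the widest at 53.7 kb.

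These intervals lay at the transcription start in most genes. A start is listed in the reference table used here for 57 of the 66 genes, and some genes have further starts that it does not list. In 46 of the 57 an interval came within 1 kb of a listed start in all 8 libraries, against 3625 of 17492 genes (20.7%). That share counts genes without a call over the span, and 4116 of the 17492 were called in all 8 libraries. The counts and distances below were not made for genes outside the family. Of the 48 genes that have a listed start and were called in all 8 libraries, 44 had that start covered in all 8. Coverage in all 8 libraries was found in 27 genes at 2 kb before the start and 39 genes at 2 kb after it, and in 7 and 6 genes at 10 kb before and after. The highest summit lay at a median of 0.448 kb from the nearest listed start, within 2 kb in 35 of the 48 genes and more than 10 kb away in 5. Those 5 were Efna2, Efna4, Sema6b, Plxnb3 and Sema6d, and the summit of Sema6d lay 43.1 kb before a listed start (-43.1 kb).

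**Figure D3:**
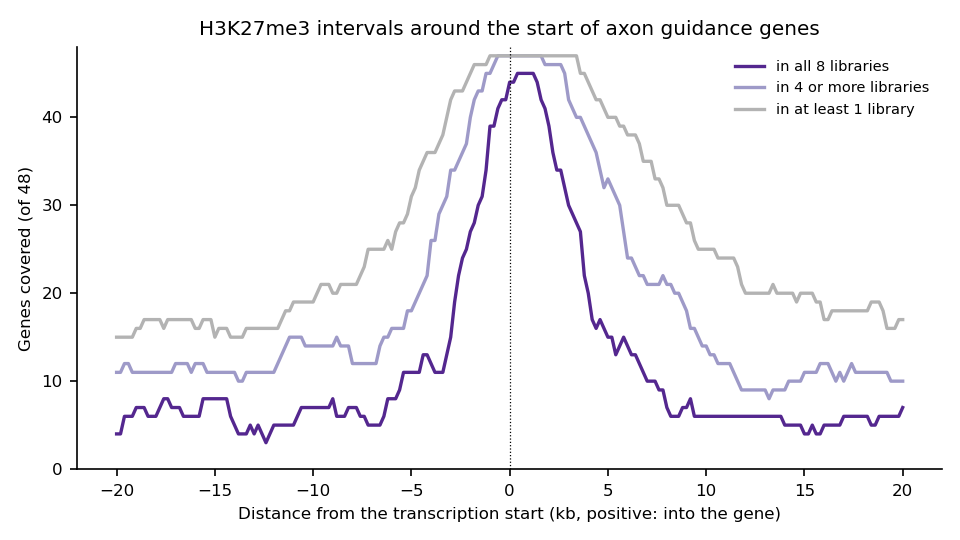
Number of genes, of the 48 called in all 8 libraries with a listed start, that were covered at each distance from that start (kb, positive into the gene), in all 8, in 4 or more and in at least 1 library. In all 8 libraries 44 genes were covered at the start itself, and 7 and 6 at 10 kb before and after it.

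Promoters of the marked genes were rich in CpG. The median number of CpG in the 300-base window, taken at the most CpG-rich listed start, was 23.5 in the 48 family genes called in all 8 libraries and 3 (2 to 14) in the 5 called in none. Over all genes it was 19 for those called in all 8 libraries, 12 for those in none and 15 in total. The most CpG-rich start need not be the marked one. For Sema4b, with 28 CpG there, that start was covered in 0 libraries. With 20 or more CpG, 31 of 32 family genes were called in all 8 libraries, against 29.6% of all genes. With 10 to 19 the count was 14 of 17, against 30.3%, and under 10 it was 3 of 8, against 14.2%. Ephb6, printed above with 34 CpG, was the exception in the first class, and Sema4f with 7, Sema3d with 8 and Plxnb3 with 4 were the 3 called genes in the last. Robo3 had 17 CpG and Robo4 had 2. These are properties of the reference sequence, and genes are not replicates, so no test was made.

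The 3 family genes on the X chromosome had low summits. Female cells silence one X chromosome, which carries broad H3K27me3. Efnb1, Plxna3 and Plxnb3 had a median of 86.8% of their spans covered with a median summit height of 14.5, against 14.4% and a height of 52 for the 53 autosomal family genes called in all 8 libraries. All 3 have spans under 20 kb, and the 12 autosomal family genes of that length called in all 8 libraries had medians of 77.8% and 72.2. Over all genes called in all 8 libraries, the 196 on the X had medians of 42.2% and a height of 20, and the other 5242 had 29.9% and 42. Plxna3 had heights of 10 and 12 in RH MET, 6 and 11 in RH VEH, 11 and 17 in WT MET, and 10 and 15 in WT VEH. Plxna3 and Plxnb3 were also the 2 genes called in all 8 libraries without an interval within 1 kb of a listed start in every one, with 7 and 6 libraries. The trait was not confined to the X at the start itself, where the autosomal gene Plxnd1 was covered in 6 libraries. Autosomal Sema4b was covered in 0 libraries at the start counted above, while an interval held its other listed start in all 8.

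Summit heights were high for the family and followed the library. The median height of the 56 genes was 50.5, at percentile 87.7 of the intervals of the same library, against 41 and percentile 83.5 for all 5438 genes in all 8 libraries. Efna3 had the greatest median height, with 124 and 100 in RH MET, 58 and 83 in RH VEH, 115 and 119 in WT MET, and 83 and 103 in WT VEH. Those values were at percentiles 99.3 to 99.8 of their own libraries. RH VEH 1 had the lowest height in 54 of the 56 genes, and in 5016 of all 5438 genes (92.2%). WT MET 2 had the highest in 35 of the 56, and in 58.3% of all genes. The median height over the 56 genes was 56.5 and 49 in RH MET, 27 and 40 in RH VEH, 56.5 and 66 in WT MET, and 40 and 54.5 in WT VEH. Heights were therefore compared between groups as percentiles within a library.

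**Figure D4:**
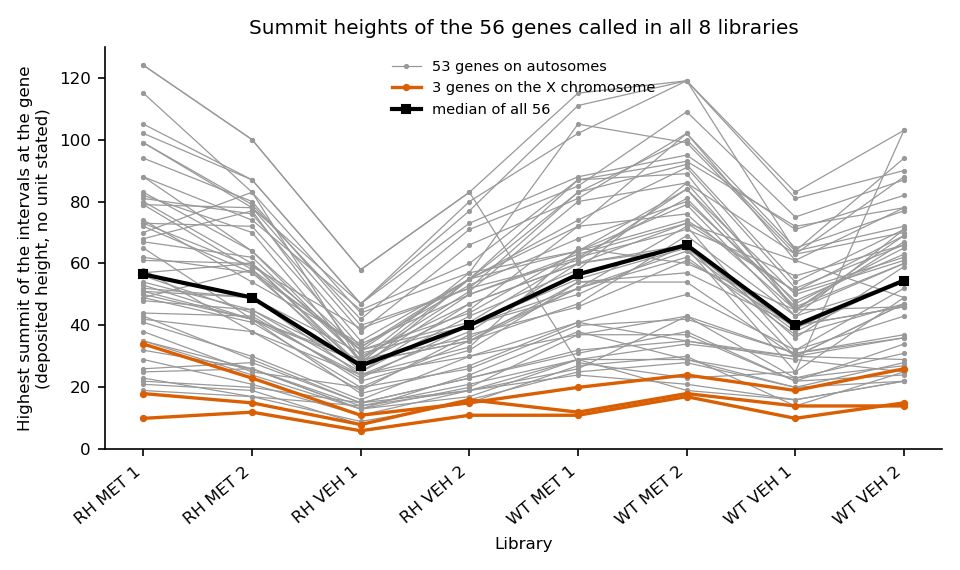
Deposited summit height (no unit stated) of the highest interval at each of the 56 genes called in all 8 libraries, by library; grey lines are 53 autosomal genes, orange lines 3 genes on the X chromosome and the black line the median. RH VEH 1 had a median of 27 and WT MET 2 a median of 66, and the genes on the X stayed low throughout.

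Metformin against vehicle in R878H progenitors set Ephb6 apart by calls. Ephb6, an Eph receptor without kinase activity, had 19.2% and 25.2% of its span covered in RH MET and 0% in both RH VEH libraries. It had 17.8% and 23.8% in WT MET, and 0% and 15.6% in WT VEH. Every MET library was thus above every VEH library. Ephb6 was the only one of 60 family genes called in each RH MET library and absent from each RH VEH library, a pattern that 236 of 7887 genes (2.99%) showed. No family gene showed the reverse, which 16 genes (0.203%) did. The 3 libraries without an interval at Ephb6 (RH VEH 1, RH VEH 2 and WT VEH 1) were the 3 with the fewest intervals, and the part of interval number in this result was not tested. Summit heights at Ephb6 were 15 and 11 in RH MET, 16 and 20 in WT MET and 13 in WT VEH 2, close to the library medians of 15 to 17. With intervals of height 15 or more, or with equal numbers of intervals per library, Ephb6 no longer separated RH MET from RH VEH.

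In limma (Benjamini-Hochberg over 8598 genes called in at least 1 library), Ephb6 differed by 22.2 ± 5.93 percentage points between RH MET and RH VEH (SE, adjusted p = 1), and by 17.6 ± 4.19 between all MET and all VEH libraries (SE, adjusted p = 0.613). No family gene passed the threshold of 0.05 between RH MET and RH VEH, where 22 genes (0.256%) rose and 1 (0.0116%) fell. The unadjusted p was under 0.05 for 3 of the 61 family genes tested, and for 282 of all genes. The median difference over the 61 genes was 0 percentage points, and over all genes it was 0.04. Of 56 summit percentiles, 47 were higher in RH MET and 9 lower, with a median difference of 3.03 points, against 4.03 over the 5438 genes tested. None of the 56 passed (1 gene, 0.0184%, rose and 2, 0.0368%, fell over all genes), and 12 of them and 747 of all genes had an unadjusted p under 0.05. The median over the 56 was 1.72 points without RH VEH replicate 1 and 5.22 without RH VEH replicate 2, against 1.97 and 5.83 over all genes.

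Metformin against vehicle in wild-type progenitors separated no family gene by calls in either direction. Over all genes, 184 of 8236 (2.23%) had calls in both WT MET libraries and in no WT VEH library, and 43 (0.522%) showed the reverse. In limma no family gene passed on percent covered, against 23 genes (0.268%) that rose and 8 (0.093%) that fell, and the smallest adjusted p in the family was 0.929 for Ntn3. At an unadjusted p under 0.05 there was 1 family gene, against 392 of all genes. Ntn3 averaged 84.3% ± 2.54 in WT MET and 96.7% ± 4.71 in WT VEH (SD, n = 2 each). No summit percentile passed in the family or over all genes (150 of 5438 genes had an unadjusted p under 0.05, 2 of them in the family).

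Over all 4 MET and 4 VEH libraries, every MET library lay above every VEH library in percent covered for 1 of 61 family genes, Ephb6, and for 87 of 8598 genes (1.01%). No family gene showed the reverse (8 genes, 0.093%), but Epha7, Sema3c, Slit2 and Plxna3 did with quantile normalization (170 genes, 1.98%). Called in all 4 MET and no VEH libraries were 15 genes (0.174%), none of them of the family, and no gene showed the reverse. This count was chosen after the data had been seen. No family gene passed limma for MET minus VEH (40 genes, 0.465%, rose and 6, 0.0698%, fell; 423 genes and 1 family gene had an unadjusted p under 0.05). The summit percentile was higher in MET for 48 of 56 family genes, with a median difference of 2.74 points, against 3.49 over all genes, and none of the 56 passed (0 genes rose and 1, 0.0184%, fell; 7 family genes and 797 of all genes had an unadjusted p under 0.05).

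R878H against wild type under vehicle separated no family gene by calls. Over all genes, 34 of 7831 (0.434%) had calls in both RH VEH libraries and in no WT VEH library, and 188 (2.4%) showed the reverse. In limma no family gene passed (1 gene, 0.0116%, rose and 15, 0.174%, fell), and 3 family genes and 413 of all genes had an unadjusted p under 0.05. The smallest adjusted p in the family was 0.626, for Ntn3, which averaged 77.1% ± 2.54 in RH VEH and 96.7% ± 4.71 in WT VEH (SD, n = 2 each). The comparison shares its vehicle libraries with those of metformin against vehicle. No summit percentile passed in the family or over all genes, with 7 family genes and 515 of all genes at an unadjusted p under 0.05.

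Under metformin the genotypes again separated no family gene by calls (76 of 8248 genes, 0.921%, were called in each RH MET but no WT MET library, and 182, 2.21%, showed the reverse). Sema4b had the smallest adjusted p in the family, 0.534, with 7.37% and 6.87% covered in RH MET, against 9.88% and 11.9% in WT MET. None of the 61 genes passed (18 genes, 0.209%, rose and 29, 0.337%, fell), and 4 of them and 483 of all genes had an unadjusted p under 0.05. No summit percentile of the family passed either (0 genes rose and 1, 0.0184%, fell over all genes), with 1 family gene and 91 of all genes at an unadjusted p under 0.05.

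Over both treatments, percent covered was lower in every RH than in every WT library for 6 of 61 family genes, Ephb1, Sema4a, Sema4b, Sema4f, Ntn1 and Unc5d. The same held for 265 of 8598 genes (3.08%), and 14 genes (0.163%, none of the family) showed the reverse. With quantile normalization the reverse was shown by 2 family genes, Unc5a and Ephb4, and by 205 of all genes (2.38%). The 6 became 3 (Sema4a, Sema4b and Ephb1) with heights of at least 15, against 226 of 7579 genes (2.98%). With equal numbers of intervals 3 remained (Sema4a, Sema4b and Unc5d), against 226 of 8228 genes (2.75%). With quantile normalization 1 remained (Sema4f), against 80 genes (0.93%). Without RH VEH replicate 2 the count was 13, against 704 of 8527 genes (8.26%). The mean covered length was lower over the 4 RH than over the 4 WT libraries, but the ranges overlapped (80.0 to 155 Mb in RH and 142 to 186 Mb in WT), and its part in these genes was not tested. The rule was added after the data had been seen. By calls, 3 genes (0.0349%) were found in all 4 RH and no WT libraries and 16 (0.186%) in no RH and all 4 WT libraries, with no family gene among them.

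Sema4f, a membrane semaphorin of the nervous system, had 12.8% and 9.21% covered in RH MET and 6.34% and 17.1% in RH VEH, against 37.9% and 42.2% in WT MET and 38.6% and 20.7% in WT VEH. In length that was 1.77 to 4.77 kb in RH and 5.77 to 11.8 kb in WT libraries. Ephb1 had 2.15% and 2.84% in RH MET and 3.54% and 2.24% in RH VEH, against 5.20% and 7.56% in WT MET and 6.22% and 4.69% in WT VEH. Ephb1, a receptor of axons that cross or avoid the midline, was thus covered over 9.29 to 15.3 kb in RH and 20.3 to 32.7 kb in WT libraries. Sema4a had 64.3% and 36.4% in RH MET and 39.6% and 59.6% in RH VEH, against 74.6% and 66.7% in WT MET and 79.4% and 76.8% in WT VEH.

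Sema4b had 7.37% and 6.87% in RH MET and 7.87% and 6.87% in RH VEH, against 9.88% and 11.9% in WT MET and 9.88% and 8.88% in WT VEH. Ntn1, the founding netrin, had 9.48% and 10.4% in RH MET and 7.34% and 11.1% in RH VEH, against 11.3% and 19.5% in WT MET and 12.6% and 11.3% in WT VEH. Unc5d had 0.292% in both RH MET libraries and 0.396% and 0.222% in RH VEH, against 0.466% in both WT MET libraries and 0.466% and 0.606% in WT VEH. For Ntn1 the genotypes all but touched, with 19.6 kb covered in the highest RH library and 20.0 kb in the lowest WT library. That is a gap of 2 steps of the 200 bp grid that sets interval edges. The gap was the same for Sema4b, with 3.13 and 3.53 kb, and for Unc5d, with 2.27 and 2.67 kb. Sema4a was also close, with 16.2 kb in the highest RH library and 16.8 kb in the lowest WT library.

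None of these genes passed limma for RH minus WT. The difference was -23.5 ± 5.12 percentage points for Sema4f (SE, adjusted p = 0.376), -24.4 ± 8.36 for Sema4a (adjusted p = 0.618), -3.22 ± 0.754 for Ephb1 (adjusted p = 0.423) and -2.89 ± 0.627 for Sema4b (adjusted p = 0.361). For Ntn1 it was -4.11 ± 2.18 (adjusted p = 0.732) and for Unc5d -0.20 ± 0.06 (adjusted p = 0.578). No family gene passed, against 17 genes (0.198%) that rose and 42 (0.488%) that fell, and an unadjusted p under 0.05 was found in 7 of the 61 family genes and 634 of all genes. The estimate was below 0 in 46 of the 61 family genes with a median of -1.28 points, close to the median of -1.31 over all genes. With quantile normalization it was above 0 in 47 of the 61, with a median of 1.1 against 0.59 over all genes, and without RH VEH replicate 1 the medians were -0.39 and -0.26. On the summit percentile the median was -1.26 points over the 56 family genes and -1.56 over all genes, with no family gene past the threshold (0 genes rose and 1, 0.0184%, fell; 7 family genes and 360 of all genes had an unadjusted p under 0.05). Quantile normalization brings the libraries towards 1 distribution, but tied zeros take a value that depends on their number in each library. The number of genes called ran from 5956 in RH VEH 1 to 7450 in WT MET 2. With this normalization the difference turned to 1.12 for Sema4b, 0.55 for Ntn1 and 0.83 for Unc5d. The part of the tied zeros in these values was not tested.

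**Figure D5:**
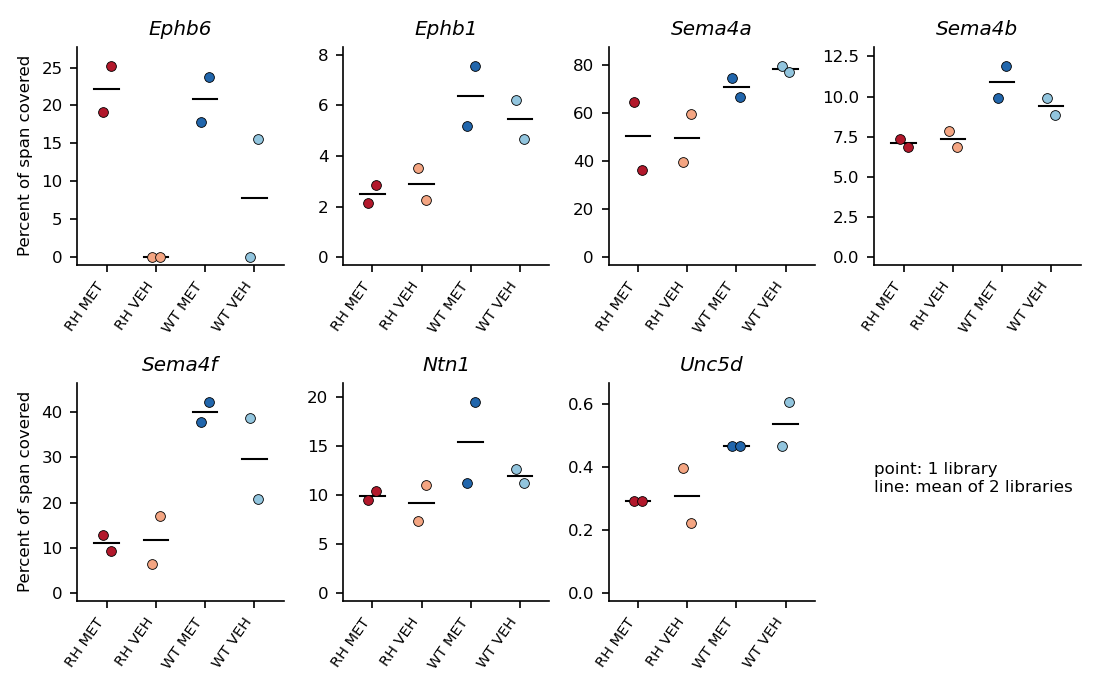
Percent of the span covered in each library (points) with the mean of 2 libraries (lines) for Ephb6 and for the 6 genes in which every RH library lay below every WT library, by group. Ephb6 was at 0 in both RH VEH libraries, and Sema4f lay at 6.34% to 17.1% in RH and at 20.7% to 42.2% in WT libraries.

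The genotype and treatment effects were also tested against each other. No family gene passed limma for the interaction, against 24 genes (0.279%) above and 16 (0.186%) below 0; 1 family gene and 330 of all genes had an unadjusted p under 0.05, and the smallest adjusted p in the family was 0.948.

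Other genes of the guidance pathway, 57 in a list of co-receptors, further cues and signalling proteins, were counted by the same rules. In all, 38 were called in all 8 libraries, against 24.8% of all genes and 52.7% of genes over 100 kb. The list was not split by gene length, so its share cannot be told apart from an effect of length. The median percent covered of the 38 ranged from 0.329% for Dcc to 94.0% for Rnd1. Among them were the semaphorin co-receptors Nrp1 and Nrp2, the netrin receptor Dcc, the cue Draxin and the small GTPase Rnd1. The signalling genes Pak1, Vav2, Vav3, Trio, Tiam1 and Dock1 were also among them. The 11 called in none, against 60.7% of all genes, were Itgb1, Abl2, Rac1, Rhoa, Cdc42, Rock2, Nck1, Nck2, Cfl1, Rasa1 and Adam10, and the other 8 were called in 1 to 7 libraries. Draxin had 50.6% and 24.3% covered in RH MET, 23.7% and 43.2% in RH VEH, 40.8% and 23.1% in WT MET, and 71.4% and 40.8% in WT VEH. Limk1, the kinase that phosphorylates cofilin, had 5.32% and 7.69% in RH MET and 0% in both RH VEH libraries, and 7.69% and 10.6% in WT MET and 0% in both WT VEH libraries. Srgap3, a signalling protein bound by Robos, had intervals in the same 4 libraries over 0.871% to 1.18% of its span. Of the 57, Fyn, Srgap3 and Limk1 were called in each RH MET but no RH VEH library. So were 236 of 7887 genes called in at least 1 of those libraries (2.99%). Srgap3, Limk1 and Arhgef11 were called in each WT MET but no WT VEH library, as were 184 of 8236 genes (2.23%). These shares leave out genes without a call in the libraries compared, whereas the 57 include them. No listed gene separated the genotypes under either treatment or showed the reverse pattern.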

How the data were processed

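H3K27me3 was measured in 8 libraries. Per the submitters' processing notes, reads on mm10 involved BWA 0.7.12 and bcl2fastq 2.20, with no roles stated. What called the intervals, how reads were filtered or scaled, and whether the input was used is not given in the sources used here. Per the file headers, the deposited intervals and summits were called per library, not on pooled replicates. The summit height is a score that the authors deposited as a whole number. It served to describe, rank or filter.

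Intervals were matched to spans of 21887 protein-coding genes in RefSeq (GRCm38.p6) with Python 3.11.15, pandas 2.3.3 and numpy 2.4.6. The table of promoters used here lists a start for 57 of the 66 family genes. Height of a gene was the highest summit among overlapping intervals, and its percentile was taken within its library. Percentiles from lists of different lengths are a limit. R 4.3.3 with limma 3.58.1 (trend, robust) was fitted to percent covered and to the percentile over 4 groups, with Benjamini-Hochberg adjustment over all genes fitted, and was tested on simulated data. Exact permutation tests (scipy 1.17.1) were used for totals per library. The percent of span is computed here from deposited intervals.

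Family members, pathway genes, markers, tests and most alternatives were chosen with earlier results of these data known. Genes named with values are those that separated a comparison, those called in some libraries, and the highest and lowest of each class by median percent covered; others named were chosen after their values were seen. No unmapped column was present. Some marker genes are not reported here.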

Additional observations from a re-analysis of the deposited data

Results flagged for a closer look

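In Unc5a, a netrin receptor, metformin and vehicle were ordered in opposite ways in the genotypes. Its percent covered was 24.1% and 24.7% in RH MET, against 26.4% and 33.3% in RH VEH, and it was 26.0% and 29.3% in WT MET, against 23.1% and 25.4% in WT VEH. The difference of the 2 effects was -8.87 percentage points, which did not pass limma's test of the interaction (adjusted p = 0.948). The same values put every RH MET library below every WT MET library, and every RH VEH library above every WT VEH library.

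Epha3, an Eph receptor, was likewise lower in RH MET (1.49% and 1.36%) than in WT MET (1.55% and 1.86%) and higher in RH VEH (2.11% and 2.61%) than in WT VEH (1.49% and 1.86%). The difference of these effects was -0.97 points (adjusted p = 0.948). Opposite orders of this kind were found in 124 of 8598 genes (1.44%) for treatment and in 109 (1.27%) for genotype.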

How the results depend on the processing

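The 56 genes called in every library became 28 (and the 5 in none became 27) when at least 10% of the span had to be covered. That was 42.4% of the family, against 14.7% of all genes. Under the other rules the count called in every library lay between 45 and 56. The lowest count, with heights of at least 15, was 68.2% of the family, against 18.2% of all genes. Ephb6 stopped separating RH MET from RH VEH with summit heights of at least 15 (0 genes, since its interval in RH MET 2 had a height of 11) and with equal numbers of intervals (0 genes). WT MET against WT VEH gained 1 gene (Slit3) with at least 10% of the span and 2 (Sema3a and Ephb6) with heights of at least 15. Over all genes, 150 and 264 showed that pattern under these 2 rules. Called in neither RH MET and both WT MET libraries were 2 genes (Slit3 and Plxna1) with at least 10%, against 221 of all genes. With heights of at least 15 it was 1 (Sema3a), against 239 of all genes. For the other changed values the cause was not tested.

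Leaving out 1 library at a time, the separated genes ranged from 1 to 2 for RH MET over RH VEH and from 0 to 2 for WT VEH over RH VEH. They ranged from 0 to 1 for WT MET over WT VEH, RH MET over WT MET and WT MET over RH MET. With 1 library left out, separated genes were not counted over all genes. Family genes past limma's threshold on percent covered ranged from 0 to 1 in each of the 7 contrasts. These were Sema3b without RH MET replicate 2, Sema5b without RH VEH replicate 2, Efnb2 without WT MET replicate 2 and Efnb1 without WT VEH replicate 2, where the lone sample of a group is assumed to vary like the other groups. On the summit percentile the range was 0 to 3 for RH VEH minus WT VEH, RH MET minus RH VEH and MET minus VEH, 0 to 1 for WT MET minus WT VEH, RH MET minus WT MET and RH minus WT, and 0 for the interaction. Those genes were Efna5, Robo1, Sema4g and Sema7a without RH VEH replicate 2, and Efna4 without WT VEH replicate 1 or 2. Over all genes, the calls on percent covered were 16 to 59 per contrast with all libraries and 11 to 366 with 1 left out, and on the summit percentile 0 to 3 and 0 to 414.

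On log2(height + 1) in place of the percentile, 16 family genes and 1710 of all genes rose in MET over VEH, where the median of all genes moved by 0.51. Efna4 alone of the family passed for RH minus WT (1 gene) and for RH MET minus WT MET (1 gene), the gene that shares an interval with Efna3 in 5 libraries. Quantile normalization reversed RH minus WT for Sema4b (1.12), Ntn1 (0.55) and Unc5d (0.83). Every RH library lay below every WT library in 3 family genes with heights of at least 15 (2.98% of all genes). The count was 3 with equal numbers of intervals (2.75%) and 1, Sema4f, with quantile normalization (0.93%), against 6 (3.08%). It was 6 to 13 without 1 library, against 3.33% to 8.26% of all genes, with both highest without RH VEH replicate 2. The fit over all protein-coding genes could not be made, since most have no interval.

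Replicate numbers are shared between groups, but their deviations correlated at only -0.03 to 0.19 over 6 pairs of groups, so they share a number and no stated pairing. With the replicate block, 0 family genes passed in any contrast, and the calls over all genes were 7 to 35 per contrast on percent covered, against 16 to 59 without it. The number of libraries and the unknown read depth limit all comparisons, and an absent interval may hold mark under the caller's limit.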
